A study of Mus musculus with 6 samples.

Results

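Accessible regions inside introns and more than 10 kb from the nearest annotated transcription start site (TSS) were examined in mouse lung fibroblasts grown on soft and stiff surfaces. A region was counted as a distal intron where both annotation columns of the deposited tables began with "intron", which leaves out repeats and CpG islands, and where its distance to the nearest TSS was above 10000 bp in either direction. No measured value entered that choice. Of 64217 regions in the table of 32 kPa against plastic, 14464 were distal introns (22.5%). They made up 343 of the 2121 regions listed as higher on 32 kPa than on 0.2 kPa (16.2%) and 378 of the 2114 regions listed as higher on plastic than on 0.2 kPa (17.9%).

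Accessibility was measured by Omni-ATAC-seq, an assay that tags open DNA with a transposase. All cultures were GFP-positive primary lung fibroblasts sorted from Col1a1-GFP transgenic mice, a reporter tied to a collagen I gene, with no further treatment; promoter length, sex, age and strain are not given in the sources used here. The cells were kept for 8 days with 10% serum on collagen I, on 0.2 kPa silicone (PDMS), on 32 kPa PDMS or on tissue-culture plastic, and each culture had 2 libraries of 50000 cells. Only a mean for each culture is tabulated. Library-to-library spread and depth are therefore unknown, and no source used here says if both libraries of one culture are from different animals.

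Introns of mammalian genes hold many enhancers, which are stretches of DNA that transcription factors bind and that act on a promoter from a distance. An intronic enhancer may act on the gene that holds it, on a neighbour or on none, so the gene with the nearest TSS and the gene whose intron contains the region are both given below. In lung fibroblasts a stiff surface is known to favour the contractile, matrix-producing state seen in fibrosis, with integrins, TGF-beta signalling and the cofactors YAP and TAZ among the known routes.

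A small number of distal introns lay at a transcript start of RefSeq that the nearest-TSS annotation of the tables did not use. Of the 14464 regions, 58 (0.401%) overlapped a RefSeq start window, which spans 250 bases before to 50 bases after a transcript start (GRCm38.p6, the assembly also called mm10). Their median level was 4.70 on 32 kPa and 4.76 on plastic, where a level is the log2 of the mean normalised reads in a region over the libraries of a culture. The 4 windows below are printed 5′ to 3′ on the strand of their transcript, with the bases inside the listed region in capitals. They are some of the listed distal introns whose DNA could be read from RefSeq, and others, such as those at Ptpa and Gm10130, are not printed. Myo1h encodes an unconventional myosin, Wiz a zinc finger chromatin protein, Mctp1 a calcium-binding membrane protein, and Gm39671 is a predicted gene.
Myo1h: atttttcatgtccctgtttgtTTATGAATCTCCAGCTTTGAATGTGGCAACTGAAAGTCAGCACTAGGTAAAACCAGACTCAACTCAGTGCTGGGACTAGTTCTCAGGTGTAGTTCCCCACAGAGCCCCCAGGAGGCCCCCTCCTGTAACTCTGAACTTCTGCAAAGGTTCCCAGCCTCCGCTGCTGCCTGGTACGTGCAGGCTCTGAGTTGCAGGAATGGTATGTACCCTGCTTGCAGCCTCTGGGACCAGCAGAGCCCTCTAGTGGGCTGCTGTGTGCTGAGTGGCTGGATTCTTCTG
Wiz: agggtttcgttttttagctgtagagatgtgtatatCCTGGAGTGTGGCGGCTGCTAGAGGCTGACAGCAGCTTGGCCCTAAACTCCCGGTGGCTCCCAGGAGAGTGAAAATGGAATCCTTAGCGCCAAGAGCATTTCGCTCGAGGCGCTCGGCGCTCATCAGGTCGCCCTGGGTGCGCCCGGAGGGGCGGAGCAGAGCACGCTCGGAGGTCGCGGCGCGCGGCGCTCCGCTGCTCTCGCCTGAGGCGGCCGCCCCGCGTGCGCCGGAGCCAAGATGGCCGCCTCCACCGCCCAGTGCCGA
Mctp1: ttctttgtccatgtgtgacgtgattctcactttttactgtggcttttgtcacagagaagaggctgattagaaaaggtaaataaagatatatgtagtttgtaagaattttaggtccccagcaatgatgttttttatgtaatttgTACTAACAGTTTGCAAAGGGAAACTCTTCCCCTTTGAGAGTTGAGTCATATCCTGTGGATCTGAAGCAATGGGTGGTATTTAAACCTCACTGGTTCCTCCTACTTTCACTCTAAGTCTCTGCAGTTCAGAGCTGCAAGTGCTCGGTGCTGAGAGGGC
Gm39671: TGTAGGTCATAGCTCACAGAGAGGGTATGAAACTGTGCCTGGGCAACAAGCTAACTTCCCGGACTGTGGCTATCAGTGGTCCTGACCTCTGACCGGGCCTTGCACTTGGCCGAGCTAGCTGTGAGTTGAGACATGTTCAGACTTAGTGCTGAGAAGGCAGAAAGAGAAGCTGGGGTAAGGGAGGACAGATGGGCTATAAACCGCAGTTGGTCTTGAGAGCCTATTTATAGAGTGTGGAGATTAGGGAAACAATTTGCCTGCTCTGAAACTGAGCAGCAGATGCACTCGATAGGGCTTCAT
The Myo1h window lies on chr5:114356565-114356864 (plus strand), the Wiz window on chr17:32364414-32364713 (minus strand), the Mctp1 window on chr13:76579347-76579646 (plus strand) and the Gm39671 window on chr11:29808615-29808914 (plus strand).

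The Myo1h region stood at 5.07 on 0.2 kPa and 6.13 on 32 kPa (authors' deposited table: fold of 1.05 at FDR = 0.0185), where a fold is a difference of log2 levels. On plastic it stood at 6.06, against 5.01 on 0.2 kPa (authors' deposited table: fold of 1.05 at FDR = 0.017). It is named for Kctd10, whose TSS is 23.8 kb away, although it covers a start of Myo1h itself. The Wiz region was listed for 32 kPa (5.06 to 6.19, fold 1.13, FDR = 0.0148) and carries the name of Akap8l in the authors' deposited table. The Mctp1 region, 195 kb from the TSS used by the tables, was listed for plastic (4.30 to 5.58, fold 1.28, FDR = 0.0209), per the authors' deposited table. So was the region at Gm39671, in an intron of Eml6 (4.52 to 5.71, fold 1.19, FDR = 0.0159), per the authors' deposited table.

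Short motifs were searched on both strands of the 63 RefSeq windows that distal introns overlap and of all 32851 windows. No motif's letters contain those of another. The AP-1 letters TGANTCA were in 8 of the 63 windows (12.7%) and in 7.81% of all windows, and Mctp1 holds them inside its listed region. The TEAD letters GGAATG were in 14.3% against 14.7%, and Myo1h holds these and the C/EBP letters TTGCNNAA inside its listed region. The letters CTGGGCA, searched for ZNF416, the zinc finger factor named in the study's title, were in 15 windows (23.8%) against 8.06%, among them Gm39671. The E-box CAGCTG was in 20 windows (31.7%) against 16.3%, and the FOX letters TGTTTAC in 5 (7.94%) against 3.65%. The ETS letters CCGGAAG were in 2 windows (3.17%) against 8.86%, the RUNX letters TGTGGTT in 1 (1.59%) against 5.27%, and the core motif of CTCF in 3 (4.76%) against 0.916%. Some windows overlap, such as a pair at Gm39671 that holds the same CTGGGCA. With 1 window for each run of overlapping windows, 58 were left at distal introns. CTGGGCA was in 13 of them (22.4%) against 8.17%, the E-box in 18 (31.0%) against 16.6% and AP-1 in 8 (13.8%) against 8.16%. TEAD was in 15.5% against 14.9%, C/EBP in 12.1% against 11.0%, FOX in 6.90% against 3.65% and ETS in 1.72% against 7.91%. Other motifs searched in the 63 windows were CRE, NFI and glucocorticoid receptor, each in 0. NF-kB was in 1 (1.59%) against 1.63% of all windows and CArG in 3 (4.76%) against 1.63%. These shares describe start windows, not the other distal introns, and no test was run on them.

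Distal introns were weaker and narrower than promoters, and close to the other regions away from promoters. Their median level was 3.99 on 32 kPa and 4.06 on plastic, with a range of -0.16 to 8.18 and of -0.20 to 8.11. Over all regions the medians were 4.17 and 4.24, over promoters 5.28 and 5.27, and over intergenic regions 3.93 and 4.03. The median width was 168 bp, against 164 bp over intergenic regions, 158 bp over introns within 10 kb of a TSS, 177 bp over all regions and 255 bp over promoters, and since levels are sums over a region, width and level are linked. Distal introns up to 150 bp wide had a median level of 3.37 on 32 kPa, and those over 400 bp a median of 6.03. The distance to the nearest TSS had a median of 42.7 kb and reached 1064 kb.

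The strongest distal intron lay in intron 14 of Camk2d, a calcium and calmodulin-dependent kinase gene, and is named for Ank2, whose TSS is 112 kb away (chr3:126831421-126831950). Its level was 8.18 on 32 kPa and 8.11 on plastic in the authors' deposited table. Among the strongest in the authors' deposited table was also an intron of Trpm6, a magnesium channel gene (8.01 and 7.96). Others were introns of Smyd3, a methyltransferase gene (8.03 and 7.82), and of Egln1, an oxygen-sensing prolyl hydroxylase gene (7.83 and 7.63), in the authors' deposited table. Of these 4, only the Egln1 region was listed as higher on a stiff culture than on 0.2 kPa, for 32 kPa. Levels of unlisted regions on 0.2 kPa are not in the tables used here, so for the other 3 no change from the soft surface can be given.

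The 14435 regions whose transcript matched RefSeq fell in 4726 host genes, of which 2038 held 1 distal intron region and 237 held 10 or more. Of the matched regions, 14385 (99.65%) lay within the RefSeq bounds of their host gene. The host gene also had the nearest TSS at 9704 regions (67.1% of all 14464). The other matched regions carried the name of a neighbour, 2202 of them downstream of its TSS and 2529 upstream. Among the genes with the most regions, Pde4d, a cAMP phosphodiesterase gene of 1302 kb, had 38 (2.92 per 100 kb), Frmd4a 26, Ptprm and Rbms3 25 each, and Wwox 24. Elmo1, an activator of Rac with DOCK proteins, had 23 regions with a median level of 5.20 on 32 kPa, against medians of 3.58 to 4.15 in the other genes with 23 or more. The first intron held 23.2% of all distal introns, and 6.61% lay in noncoding transcripts.

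On 32 kPa, 347 of the 14464 distal introns overlapped a region listed as higher than on 0.2 kPa (2.4%, 95% Wilson interval 2.16 to 2.66%), against 3.31% of all regions. On plastic 381 did (2.63%, 2.39 to 2.91%), against 3.30% of all regions. These shares are of the regions tabulated for 32 kPa against plastic, not of the regions tested against 0.2 kPa. In the 32 kPa list the region names carry numbers that follow the order of the p-values and run to 5480 for the 2121 regions listed. If they are ranks, the p-values and FDRs of the authors' deposited table correspond to about 20900 regions tested. The deposited lists hold folds of at least 1 and FDRs of at most 0.05, only in the direction of the stiffer culture, and their lowest levels were 4.97 on 32 kPa and 4.94 on plastic. Only 18% and 19.4% of distal introns reached those levels, against 58.9% and 60.7% of promoters. Among regions that did, 346 of 2609 distal introns were listed for 32 kPa (13.3%, interval 12.0 to 14.6%), against 12.5% of all such regions, 13.0% of promoters and 11.6% of intergenic regions. For plastic the share was 380 of 2811 (13.5%, interval 12.3 to 14.8%), against 11.7% of all such regions, 10.8% of promoters and 13.0% of intergenic regions. The level on the stiffer culture is part of the fold that decides listing, so a region that rose reaches the listing level more readily. Shares among regions at that level, here and by class, distance, intron or gene list, are therefore descriptions and support no difference between classes. The intervals cover counting error over regions, which are not replicates of a culture, and both comparisons use the same 0.2 kPa libraries.

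Within ranges of the level on the stiffer culture, the order of the classes was not the same throughout. Between 5 and 5.5, 8.60% of distal introns, 6.80% of introns within 10 kb of a TSS and 4.66% of promoters were listed for 32 kPa, and 12.9%, 7.64% and 6.64% for plastic. Between 5.5 and 6 the shares for 32 kPa were 18.5% of distal introns, also 18.5% of introns within 10 kb, 15.8% of intergenic regions and 11.8% of promoters. At 7 and above 8 of 47 distal introns were listed for 32 kPa (17.0%) against 20.8% of all regions, and 2 of 43 for plastic (4.65%) against 10.0%. No difference between classes was tested.

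**Figure D1:**
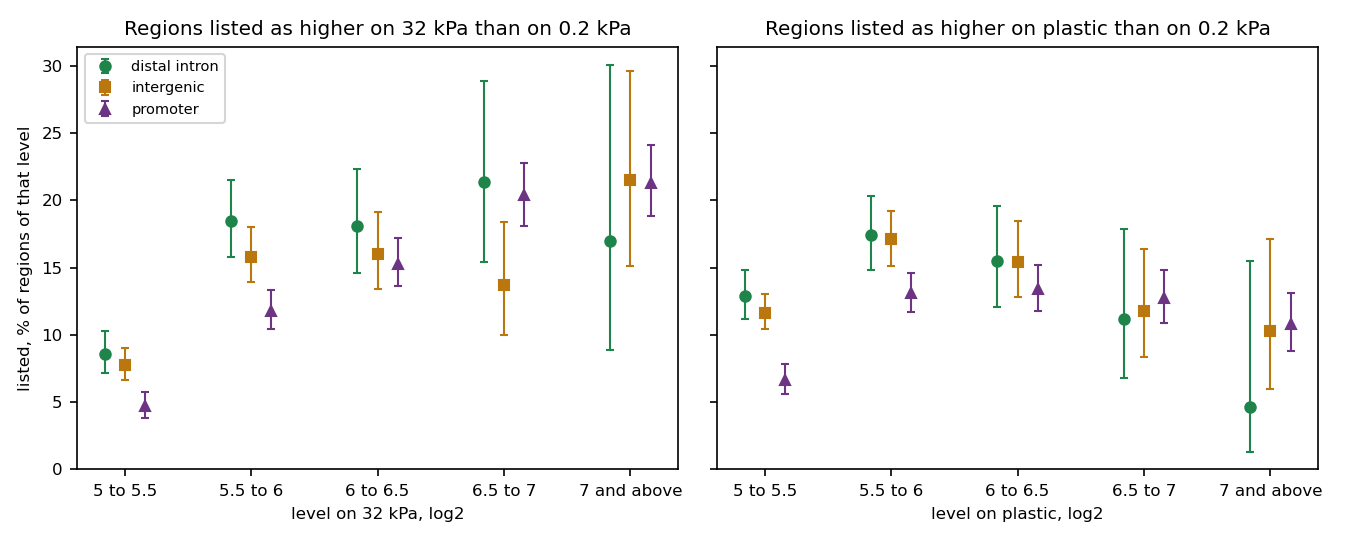
Share of regions listed as higher on 32 kPa (left) or plastic (right) than on 0.2 kPa, in percent, by the region's level on the stiffer culture (log2), for distal introns, intergenic regions and promoters; bars are 95% Wilson intervals over regions. Below a level of 6 the distal introns sit above the promoters, for example 8.60% against 4.66% between 5 and 5.5 on 32 kPa; the level plotted is part of the fold that decides listing.

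Beyond the 10 kb limit the share showed no steady order with distance for 32 kPa. Among distal introns at the listing level, 11.5% to 15.5% were listed for 32 kPa across 6 classes of distance, and 11.5% to 17.9% for plastic, with the highest value for plastic over 200 kb from a TSS (26 of 145, interval 12.5 to 25%). Introns 5 to 10 kb from a TSS, just outside the limit, had 11.4% for 32 kPa and 7.65% for plastic, against 12.5% and 13.1% at 10 to 15 kb; these differences were not tested. The 200 regions nearest to the limit on its inner side (10002 to 10562 bp) had median levels of 3.94 on 32 kPa and 4.09 on plastic, and 5 and 7 of them were listed. The 200 nearest on its outer side (9416 to 9994 bp) had medians of 4.01 and 4.06, and 4 and 3 were listed. First, middle and last introns at the listing level were listed for 32 kPa at 13.9%, 13.0% and 13.2%. Regions whose host gene had the nearest TSS were listed at 13.6% for 32 kPa and 13.1% for plastic. Regions named for another gene were at 12.7% on either side of its TSS for 32 kPa. For plastic they were at 13.6% downstream of that TSS and at 15.3% upstream. On the X chromosome 228 distal introns were found, of which 21 reached the listing level for 32 kPa; 1 was listed for 32 kPa and 0 for plastic.

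**Figure D2:**
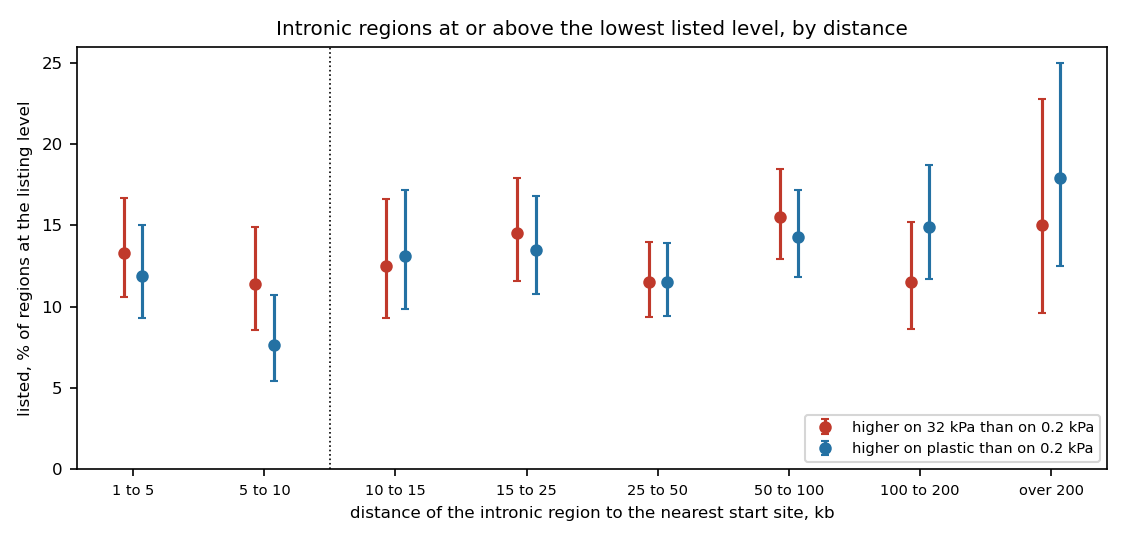
Share of intronic regions reaching the lowest listed level that were listed as higher on 32 kPa or on plastic than on 0.2 kPa, in percent, by distance to the nearest start site in kb; bars are 95% Wilson intervals and the dotted line marks the 10 kb limit. Beyond it the shares lie between 11.5% and 17.9%.

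Distal introns that were listed rose from a median level of 4.53 on 0.2 kPa to 5.68 on 32 kPa, and from 4.34 to 5.51 on plastic. The median fold was 1.18 in both comparisons, with interquartile ranges over regions of 1.08 to 1.29 for 32 kPa and of 1.08 to 1.27 for plastic. It was 1.12 over all listed regions, 1.08 over listed promoters and 1.16 and 1.15 over listed intergenic regions. Folds of at least 1.2 were reached by 44.9% of listed distal introns, 42.1% of listed intergenic regions and 29.1% of all listed regions for 32 kPa, and by 43.4%, 39.0% and 30.4% for plastic. FDRs ran the other way. An FDR of at most 0.01 was reached by 21.6% of listed distal introns against 33.0% of all listed regions for 32 kPa, and by 22.0% against 32.7% for plastic. Listed intergenic regions had 20.3% and 22.5%, near the distal introns, and listed promoters 46.3% for 32 kPa.

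Folds and FDRs both varied with the level. Among regions listed for 32 kPa with a level under 5.5, the median fold was 1.27 at distal introns, 1.23 over all and 1.16 at promoters, and 4.50%, 3.13% and 0% had an FDR of at most 0.01. Between 6 and 6.5 the median folds were 1.08, 1.08 and 1.08, and 35.4%, 30.6% and 27.5% had such an FDR. At 6.5 and above 87.2% of listed distal introns and 88.8% of listed promoters did, and the median folds were 1.12 at 39 distal introns, 1.06 over all and 1.06 at promoters. For plastic they were 1.13, 1.08 and 1.08 between 6 and 6.5, and 1.02 at 18 distal introns, 1.05 and 1.05 at 6.5 and above. In a mixed culture, more cells with a region open and more access per cell cannot be told apart.

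The largest folds for 32 kPa lay at regions that were weak on 0.2 kPa, in genes with varied roles. A region in intron 2 of the noncoding gene 4930556M19Rik stood at 3.24 on 0.2 kPa, 5.12 on 32 kPa and 4.2 on plastic (authors' deposited table: fold of 1.88 at FDR = 0.0061). A region in intron 54 of Fbn1, which encodes the microfibril protein fibrillin-1, stood at 3.72 on 0.2 kPa, 5.55 on 32 kPa and 4.77 on plastic (authors' deposited table: fold of 1.83 at FDR = 0.00251). It lies at chr2:125318337-125318707 and is named for Dut, a nucleotide-metabolism gene whose TSS is 71.0 kb away. Another intron of Fbn1, intron 35, rose from 4.80 to 5.82 (authors' deposited table: fold of 1.03 at FDR = 0.0327), again under the name Dut. Introns of Megf6 (3.67 to 5.48) and of the glypican gene Gpc6 (3.34 to 5.15) each had a fold of 1.81 in the authors' deposited table. The next in the authors' deposited table were E430016F16Rik, named for Ntrk3 (fold 1.67), the guanine nucleotide exchange factor gene Farp1 (1.66), the Rac-regulating gene Arhgap15 (1.62) and the ephrin receptor gene Ephb4 (1.61). The polarity gene Pard3b and the mitochondrial fusion gene Miga1 closed the 10 largest, both at 1.60 in the authors' deposited table. On plastic these 10 regions lay between 4.2 and 5.51, each under or level with its value on 32 kPa.

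On plastic the largest fold was at an intron of 4930526L06Rik, named for Ms4a1, which stood at 3.85 on 0.2 kPa, 5.59 on plastic and 4.94 on 32 kPa (authors' deposited table: fold of 1.73 at FDR = 0.00177). An intron of the noncoding gene Sox2ot followed at 4.15, 5.82 and 4.87 (authors' deposited table: fold of 1.66 at FDR = 0.00168). A region in the first intron of Osmr, the oncostatin M receptor gene, 12.5 kb from its TSS (chr15:6861669-6861949), rose from 4.62 to 6.25 (authors' deposited table: fold of 1.63 at FDR = 0.00025). It was also listed for 32 kPa, at a fold of 1.21 in the authors' deposited table. Introns of Miga1 and of Prkg1, a cGMP-dependent kinase gene, had folds of 1.60 in the authors' deposited table. Next in the authors' deposited table were introns of Rttn (1.56), of the scaffold gene Magi2, the nuclear receptor gene Rora and Gm17359 (each 1.55) and of the potassium channel subunit gene Kcnmb2 (1.54). The Rttn region, named for Cd226, stood at 3.57 on 0.2 kPa, 5.13 on plastic and 3.72 on 32 kPa in the authors' deposited table, so that the soft and the 32 kPa values were close together. The converse case was an intron of the ubiquitin ligase gene Pdzrn3, at 5.54 on 0.2 kPa, 6.55 on 32 kPa and 5.52 on plastic (authors' deposited table: fold of 1.01 at FDR = 0.0144). Neither region had an FDR of at most 0.05 between 32 kPa and plastic, and both were singled out for a small difference from 0.2 kPa. The medians of the 343 distal introns listed for 32 kPa were 4.53 on 0.2 kPa, 5.68 on 32 kPa and 5.5 on plastic, and those of 374 listed for plastic with a level on 32 kPa were 4.35 on 0.2 kPa, 5.51 on plastic and 5.31 on 32 kPa.

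**Figure D3:**
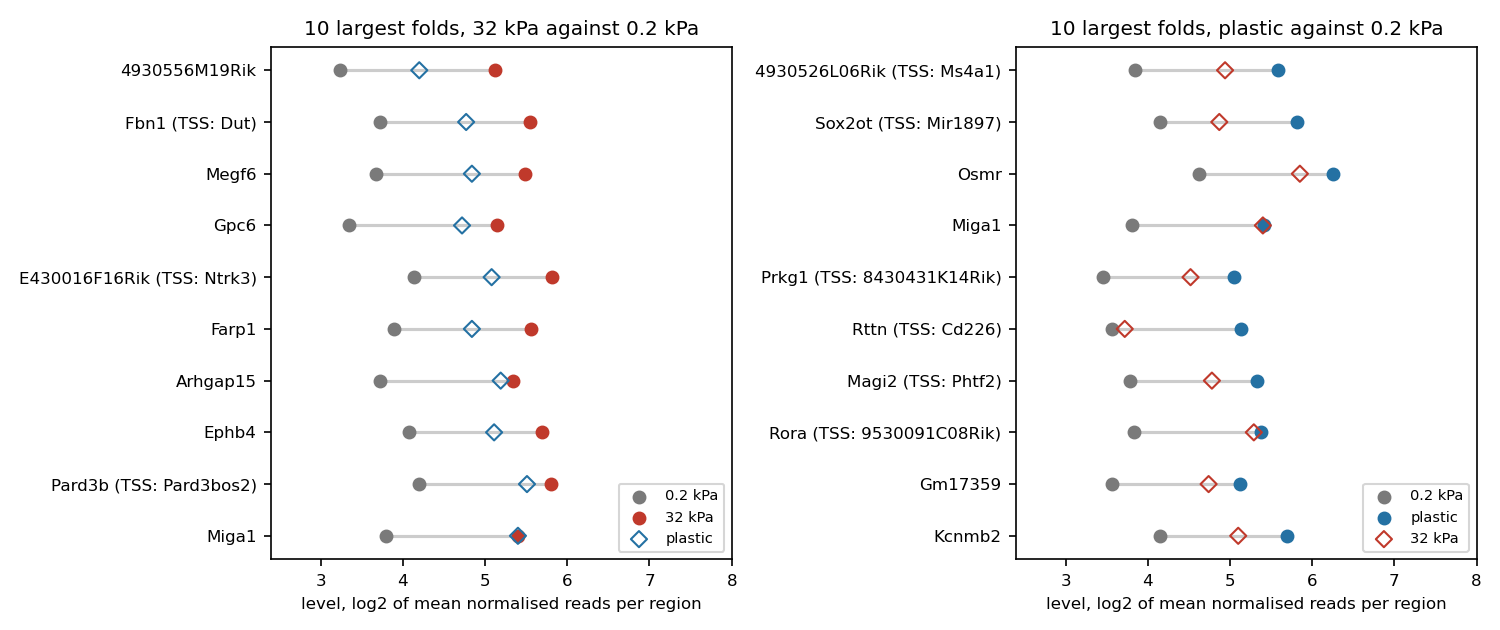
Levels (log2 of mean normalised reads per region, horizontal axis) on 0.2 kPa (grey), on the stiff culture of the comparison (filled) and on the other stiff culture (open diamond) at the 10 distal introns with the largest fold for 32 kPa (left) and plastic (right); labels give the host gene and, where it differs, the gene of the nearest start site. The open diamonds lie between both filled points or at the stiff one, and at Rttn close to the soft one (3.72 against 3.57).

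Several regions were listed in both comparisons with large folds, which share their 0.2 kPa libraries. The Miga1 region had folds of 1.60 for 32 kPa and 1.60 for plastic in the authors' deposited table (FDR = 0.00927 and 0.00615). The Arhgap15 region had 1.62 and 1.52 and a region in the last intron of Rbpms, an RNA-binding protein gene, had 1.52 and 1.48, per the authors' deposited table. The Fgf7 region, in an intron of the gene for a growth factor that fibroblasts supply to epithelium (chr2:126060675-126060955), stood at 4.12 on 0.2 kPa, 5.57 on 32 kPa and 5.58 on plastic in the authors' deposited table, with folds of 1.45 and 1.41 (FDR = 0.00927 and 0.00734). Regions of the endocytic gene Snx9 (1.51 and 1.41), the exocyst gene Exoc4 (1.56 and 1.38), the glycosyltransferase gene Galnt17 (1.38 and 1.5) and Pard3b (1.60 and 1.35) followed in the authors' deposited table. The adhesion gene Sdk1 had 1.35 and 1.37 in the authors' deposited table. The collagen receptor gene Mrc2 had 1.34 for 32 kPa, and separate regions overlapping it had 1.41 and 1.30 for plastic, in the authors' deposited table. Exoc4 and Rbpms would not be found under the names in the table, which are Lrguk and Smim18.

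A few host genes held 3 or more listed distal introns. Ror1, a receptor for Wnt5a, held 4 regions listed for 32 kPa, of its 18 distal introns, with 1.02 to 1.45 as their folds in the authors' deposited table. They stood at 4.50 to 5.26 on 0.2 kPa and at 5.56 to 6.71 on 32 kPa per the authors' deposited table. Of the 4, 3 carry the name of Ube2u, an enzyme of the ubiquitin system whose TSS is 92.0 to 167 kb away. The strongest, in intron 4 (chr4:100350026-100350765), rose from 5.26 to 6.71 (authors' deposited table: fold of 1.45 at FDR = 0.000821) and stood at 6.11 on plastic. Col4a2, a chain of basement membrane collagen, held 3 of its 15 regions listed for 32 kPa, all named for its neighbour Col4a1, with 1.02 to 1.31 as their folds in the authors' deposited table. Its strongest, in intron 4, rose from 5.25 to 6.56 (authors' deposited table: fold of 1.31 at FDR = 0.00218). Maml3, a Notch coactivator gene, Slc8a1, a sodium-calcium exchanger gene, Atp10a, a phospholipid flippase gene, and Rnf150 also held 3 each for 32 kPa. These genes had 15 distal introns each, apart from Slc8a1 with 13. For Slc8a1 the levels were 4.66 to 5.29 on 0.2 kPa and 5.76 to 6.5 on 32 kPa per the authors' deposited table.

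On plastic Fbln5, which encodes the elastic fibre protein fibulin-5, held 3 listed regions of its 7 distal introns. These 3 all lay in intron 4, 19.8 to 23.9 kb from its TSS. They stood at 3.6 to 4.45 on 0.2 kPa and at 5.0 to 5.65 on plastic in the authors' deposited table, with folds of 1.04 to 1.40. On 32 kPa the matching regions, which share at least 50% of both lengths, stood at 4.77 to 5.42 in the authors' deposited table and were not listed. Elmo1 held 3 (folds of 1.21 to 1.27), the nuclear receptor coactivator gene Ncoa7 3 (1.14 to 1.33) and the glutamate receptor gene Grin2b 3 (1.09 to 1.44) in the authors' deposited table. Rnf150, a RING finger gene, held 3 in each comparison, all in its first intron, and in the authors' deposited table the folds were 1.13 to 1.25 for 32 kPa and 1.24 to 1.39 for plastic. Many regions of these genes lay under the lowest listed level. It was reached on 32 kPa by 12 of the 23 in Elmo1 and by 4 of the 15 in Rnf150. On plastic it was reached by 12 in Elmo1 and by 4 each in Fbln5, Ncoa7, Grin2b and Rnf150. Over all distal introns at that level 13.5% were listed for plastic, and these genes were picked for holding 3 or more.

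**Figure D4:**
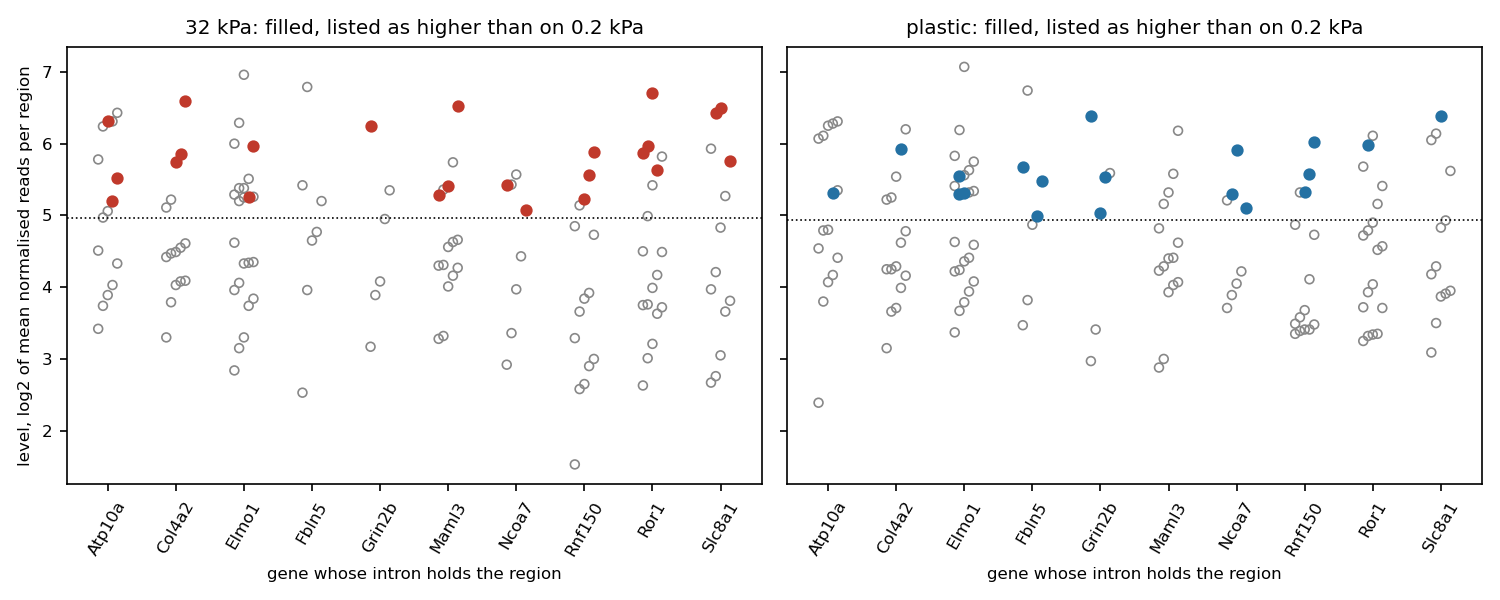
Level of every distal intron (log2 of mean normalised reads per region, vertical axis) on 32 kPa (left) and plastic (right) in the 10 host genes with 3 or more regions listed in a comparison; filled points overlap a listed region and the dotted line is the lowest listed level, 4.97 and 4.94. Listed and unlisted regions of a gene lie side by side above the line, as in Ror1, where 4 of the 7 regions above it on 32 kPa are listed.

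The 10 lists of genes were read by host gene, counting genes with a region at the listing level and, among them, genes with a listed region. Over all host genes these were 305 of 1667 (18.3%) for 32 kPa and 340 of 1777 (19.1%) for plastic. Matrix genes had 1 of 10 for 32 kPa, which was Fbn1, and 4 of 12 for plastic (Col12a1, Fbln5, Loxl1 and Sparc). Col12a1, a collagen that decorates fibrils, rose from 5.08 to 6.31 on plastic (authors' deposited table: fold of 1.23 at FDR = 0.00304) in a region named for Gm10635. By nearest TSS the matrix list had 0 of 10 for 32 kPa, because the Fbn1 regions are named for Dut.

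Contractile and cytoskeletal genes had 4 of 14 for 32 kPa (Actn4, Lpp, Palld and Tpm4) and 3 of 14 for plastic (Actn1, Actn4 and Myh9). The largest rise was in the actin-associated gene Palld, from 3.53 to 5.09 on 32 kPa (authors' deposited table: fold of 1.56 at FDR = 0.018). The first intron of Actn4, a nonmuscle actinin gene, had folds of 1.03 for 32 kPa and 1.24 for plastic in the authors' deposited table. Integrin, focal adhesion and mechanosensing genes had 4 of 19 and 7 of 18. Their members included the TGF-beta-activating integrin gene Itgb8 for 32 kPa (fold 1.37), and the tensin gene Tns3 (1.25), the channel gene Piezo2 (1.12) and the kinase gene Rock1 (1.25) for plastic, in the authors' deposited table. Itgb5 and Itgb6, further integrin subunits, were listed in both, with 1.01 to 1.17 as their folds in the authors' deposited table, and Tns1 in both at separate introns (1.03 and 1.02).

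In the TGF-beta list the shares were 3 of 12 and 3 of 12. A region in the first intron of the ligand gene Tgfb2, at 10.4 kb just past the distance limit, rose from 4.22 to 5.31 on 32 kPa (fold 1.10, FDR = 0.0459) and from 4.26 to 5.66 on plastic (fold 1.40, FDR = 0.00677), per the authors' deposited table. Nedd9, an adaptor of focal adhesions, was listed in both at folds of 1.30 and 1.37 in the authors' deposited table. Ski, a repressor of SMADs, was listed for 32 kPa (fold 1.0), and Smad3, a transducer of the pathway, for plastic (1.22) in the authors' deposited table. The YAP, TAZ and TEAD list had 2 of 13 and 2 of 12, with Tgfb2 in both, TAZ itself (Wwtr1) for 32 kPa (fold 1.07) and Yap1 for plastic (fold 1.31) in the authors' deposited table.

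The list of antifibrotic, lipid and growth factor genes had 4 of 11 for 32 kPa and 5 of 12 for plastic, with Fgf2, Fgf7, Igf1 and Pde4d in both and Prkg1 added on plastic. A region in intron 2 of Igf1, an insulin-like growth factor gene, was the strongest distal intron listed for plastic (chr10:87879961-87880682 in the 32 kPa list). It rose from 5.94 to 7.19 on 32 kPa (fold 1.25, FDR = 0.000751) and from 5.95 to 7.08 on plastic (fold 1.13, FDR = 0.000246), per the authors' deposited table. Fgf2, a fibroblast mitogen, had folds of 1.13 and 1.01, and a Pde4d region named for Mir582 had 1.48 and 1.21, in the authors' deposited table. Fibroblast transcription factors had 4 of 17 (Ebf1, Foxp1, Rora and Runx2) and 2 of 16 (Foxp1 and Rora). The first intron of Foxp1, a forkhead factor gene, rose by 1.21 and by 1.28 per the authors' deposited table (FDR = 0.00328 and 0.000695). In Rora a region 62.3 kb from the nearest TSS rose by 1.40 on 32 kPa (FDR = 0.00281), and by 1.06 on plastic, in the authors' deposited table.

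Wnt and Hedgehog genes had 3 of 7 (Gli3, Ror1 and Tnik) and 2 of 8 (Ror1 and Tnik). By nearest TSS the second count was 0 of 10, since the regions of Tnik, a kinase of Wnt signalling, and of Ror1 are named for Mir466q and Ube2u. Chromatin and zinc finger regulators had 1 of 6 for 32 kPa, Zfhx3 (fold 1.0 in the authors' deposited table). Axon guidance and adhesion genes with long introns had 3 of 19 and 8 of 24. Among them Ncam1, Nlgn1 and Plxna4 were listed in both, at folds of 1.29 and 1.36, 1.17 and 1.37, and 1.40 and 1.19 in the authors' deposited table. The counts are small, the lists share genes such as Tgfb2, and no difference between a list and all genes was tested.

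Between 32 kPa and plastic no distal intron passed the authors' DiffBind test: all FDRs were 1, over all 64217 regions as well. An unadjusted p under 0.05 was reached by 92 of 14464 distal introns (0.636%), against 0.576% of all regions. A p under 0.01 was reached by 4 distal introns, and by 15 of all 64217 regions. Of the 92, 33 were higher on 32 kPa and 59 on plastic. Over all regions 370 had a p under 0.05, of which 125 were higher on 32 kPa and 245 on plastic. The median difference, 32 kPa minus plastic, was -0.06 at distal introns and -0.05 over all regions. An absolute difference of at least 1 was found at 810 distal introns (5.60%), against 4.67% of all regions, and it thinned out with the level. It was found at 38.4% of those with a mean level under 3, 5.48% from 3 to 4, 0.732% from 4 to 5, 1 of 1958 from 5 to 6, and 0 of 542 at 6 and above.

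The largest differences were at regions with a level of 1.32 or less on 1 of the cultures. Toward plastic they were introns of the cadherin gene Fat3 (0.37 on 32 kPa and 3.49 on plastic), the oestrogen receptor gene Esr2 (-0.16 and 2.65), the chromatin remodelling gene Arid2 (0.76 and 3.49), Syn3 (0.37 and 3.09) and Slc35f1 (1.2 and 3.90) in the authors' deposited table. Slc35f1 had the lowest p of any distal intron (p = 0.00536) in the authors' deposited table. Toward 32 kPa they were introns of the mTOR partner gene Rptor (3.66 on 32 kPa and 1.09 on plastic), Stxbp6 (3.53 and 1.25), Cntnap5a (3.05 and 0.80), the protease gene Adamts16 (3.13 and 0.90) and Ccdc162 (3.51 and 1.32) in the authors' deposited table. These 10 regions were 94 to 131 bp wide apart from Arid2 at 84 bp. The Rttn intron was the only region listed against 0.2 kPa among the 4 distal introns with a p under 0.01 (p = 0.00932 in the authors' deposited table).

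**Figure D5:**
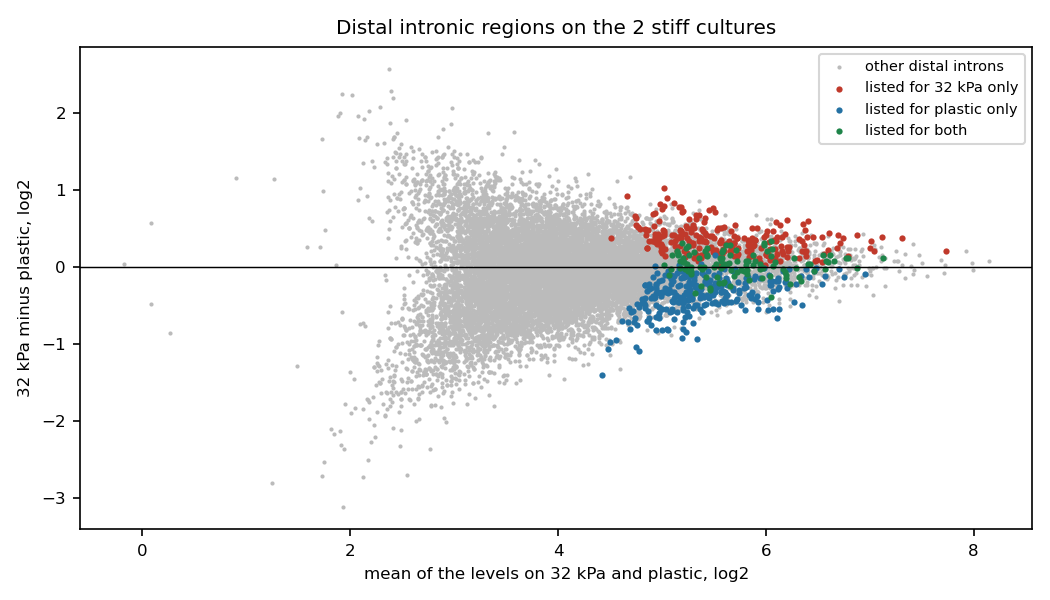
Difference of levels, 32 kPa minus plastic (log2, vertical axis), against the mean of both levels (log2, horizontal axis) for 14464 distal introns; colours mark regions that overlap one listed as higher than on 0.2 kPa for 32 kPa, for plastic or for both. Differences of 1 or more gather at mean levels under 3 (38.4% of regions there), and regions in 1 list lie mostly on the side of that list, whose level helped to place them there.

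The labelled cell type was checked at promoters of marker genes. Of 8 fibroblast markers 7 had a promoter region, at 3.76 to 6.14 on 32 kPa, with Col1a1 at 5.27, Col1a2 at 5.94 and Pdgfrb at 6.14, and Lum had none. None of 4 epithelial, 4 leukocyte and 3 mesothelial markers had one. Of 4 endothelial markers 2 did, at 3.08 and 3.13 on 32 kPa, and of 3 markers of pericytes and smooth muscle 1 did, Myh11 at 5.25. On plastic the fibroblast marker Thy1 stood at 2.97, under the endothelial markers Kdr at 3.02 and Tek at up to 3.71. The remaining fibroblast promoters stood at 3.90 to 6.15 on plastic. Distal introns were nonetheless found in the mesothelial gene Wt1, up to 6.14 on 32 kPa, and in the endothelial genes Tek, up to 5.81, Cdh5, at 5.53, and Pecam1, at 2.9. Cdh1 (3.27), an epithelial gene, and Ptprc (up to 3.92), a leukocyte gene, held some too. Of the distal introns in all these marker genes, 1 was listed, in Wt1, for both cultures. It rose from 4.71 to 6.14 on 32 kPa (fold 1.43, FDR = 0.0031) and from 4.72 to 5.84 on plastic (fold 1.12, FDR = 0.0179), per the authors' deposited table. The part of other cell types in the lists was not tested.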

How the data were processed

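Per the labels, 6 Omni-ATAC-seq libraries were made, 2 per culture, read to 51 bp from both ends. Tools in the submitters' processing notes are BWA, Picard, MACS2 and DiffBind, with the build mm10 and no settings; transposase shift, peak merging and scaling are not given in the sources used here. The authors deposited, per pair of cultures, a log2 mean level per region and culture, a log2 fold, a p-value and an FDR (also a p-value, adjusted over the regions they tested). Levels are per region, not per base. Annotations are the authors', in HOMER's layout. The members and gene lists were chosen with earlier results of these data known.

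The tables of 0.2 kPa name their sides Control and Treat. At 643 intervals shared with the third table Control equalled the 32 kPa level, and at 653 it lay 0.01 to 0.02 above the plastic level, so Control was read as the stiffer culture. Starts were set 1-based and 1 repeated header row was dropped. Regions of different tables were matched by an overlap of 1 bp, and levels on the culture outside a comparison were read at regions sharing 50% of both lengths. Host genes came from the transcript in the annotation through RefSeq (GRCm38.p6), and names were matched by gene identifier. The only test is the authors' FDR; its p-values rest on differences among these libraries, possibly technical ones. Shares carry 95% Wilson intervals. Overlap, the rule and the intervals were tested on simulated data. Named regions were those with the 10 largest folds per comparison, the 10 largest smaller folds in both lists, genes with 3 or more listed regions or in a gene list and both comparisons, each list's largest, the 5 strongest, and the 5 most different each way between stiff cultures (a few genes that these rules name are not reported here); a few others (Wiz, Mctp1, Gm39671, Pdzrn3 and further listed members of the gene lists) were chosen after their values were seen. Genome sequence of the regions was not used here. The scripts ran on scipy 1.17.1, numpy 2.4.6, pandas 2.3.3 and matplotlib 3.10.9 under Python 3.11.15.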

Additional observations from a re-analysis of the deposited data

How the results depend on the processing

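Of 61 alternatives over 10 results, 36 left the value within its 95% interval (or, for counts, within 1.5 times), 25 moved it and 0 turned its sign. The count of distal introns with an FDR of at most 0.05 between 32 kPa and plastic stayed at 0 under each alternative, with all FDRs at 1 in that comparison and 92 unadjusted p-values under 0.05. The share of distal introns overlapping a listed region, 2.4% for 32 kPa and 2.63% for plastic, became 0.512% and 0.581% at an FDR of at most 0.01, 1.07% and 1.15% at a fold of at least 1.2, and 13.3% and 13.5% among regions at the listing level. The median fold of 1.18 became 1.21 in both comparisons at an FDR of at most 0.01. The share of the 32 kPa list made up by distal introns, 16.2%, was 18.3%, 13.1% and 7.5% with distance limits of 5000, 20000 and 50000 bp, 18.7% with repeats and CpG islands kept, 10.6% at an FDR of at most 0.01 and 24.9% at a fold of at least 1.2. The share of the plastic list, 17.9%, was 14.1% and 8.51% with limits of 20000 and 50000 bp, 21.3% with repeats and CpG islands kept, 12.0% at an FDR of at most 0.01 and 25.5% at a fold of at least 1.2. The median of 32 kPa minus plastic, -0.06, was -0.09 beyond 50000 bp and -0.02 at or above the table's median level. Median levels of 3.99 and 4.06 were 3.95 and 4.03 beyond 50000 bp and 3.96 and 4.03 with repeats and CpG islands kept. Limiting the regions to introns of the gene with the nearest TSS (2.47% and 2.58%), or leaving out those at RefSeq start windows (2.39% and 2.61%), was chosen after seeing the data. No paired analysis was possible because the tables give 1 mean per culture; leaving out a replicate was not run for the same reason. A level has no counting error here, since library depths are unknown. Regions under the lowest listed level, and regions lower on a stiff culture, could not appear in the lists.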
